A study of Mus musculus with 6 samples.

Results

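The genes of MHC class II presentation were followed across 6 RNA sequencing libraries of macrophages from Lewis lung carcinoma (LLC) tumors of mice. The 10 genes, H2-Aa, H2-Ab1, H2-Eb1, H2-DMa, H2-DMb1, H2-DMb2, H2-Oa, H2-Ob, Cd74 and Ciita, were taken by symbol from the 22377 genes of the count table, and all 10 were found and passed the filter on low counts. The labels call 3 libraries wt and 3 knockdown, the latter titled ko, and number 3 biological samples in each, without saying whether each came from 1 mouse or a pool. The paper speaks of individual mice for this comparison but counts fewer of them than there are libraries in a group, and which libraries it means is not given. In the paper the corresponding groups are Npm1+/+ mice and Npm1+/- mice, which carry 1 intact allele of nucleophosmin in every host cell, whereas the implanted tumor cells were the same unmodified LLC line in both groups. Macrophages carrying CD45, CD11b and the antigen encoded by Adgre1 were sorted from subcutaneous tumors, grown for 2 weeks in male and female mice implanted at 6 to 8 weeks of age. The sex behind each library is not given. The labels instead name tumor tissue as the material, TRIzol extraction and a library enriched for small RNA, whereas the paper describes column extraction and cDNA made with a low-input kit for full-length transcripts. These sources conflict, the deposited counts cover protein-coding genes such as the members, and the description of the paper is used below.

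Npm1, the targeted gene, did not separate the groups in the direction of its label. Its level was 142, 380.2 and 381 CPM (counts relative to the library size, scaled by the TMM method) in wt replicates 1, 2 and 3, and 441, 499 and 343 CPM in the libraries labelled knockdown. The log2 fold change from edgeR was 0.51, with a standard error (SE) of 0.36 and an adjusted p of 0.436. The groups are therefore named by their labels throughout, and a negative log2 fold change means a lower estimate in the libraries labelled knockdown.

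MHC class II molecules display peptides from the endosomes to CD4+ T cells. The α chain and the β chain pair in the endoplasmic reticulum with the invariant chain, encoded by Cd74, whose remnant CLIP occupies the groove until H2-DM exchanges it for other peptides. H2-DM is built from an H2-DMa chain and a chain of H2-DMb1 or H2-DMb2, and its action is restrained by H2-DO, a product of H2-Oa and H2-Ob that is known mainly from B cells and some dendritic cells. Transcription of this set depends on the coactivator Ciita, which does not bind DNA itself and is recruited by factors seated on the X and Y boxes of the class II promoters. Macrophages hold low class II levels at rest and raise them after interferon-gamma, which induces Ciita.

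The promoters are shown for the X and Y boxes named above. The exact X box letters searched below were found in 3 of the 7 members with a promoter window. RefSeq promoter windows on GRCm38.p6, from 250 bases before to 50 bases after the start of transcription, were at hand for 7 of the members. The Y box core GATTGG was searched on both strands and was present in a window of all 7, against 16.1% of the 32851 promoter windows of the mouse. For H2-DMa it lay far upstream in 1 of its 2 alternative windows. In the other 6 genes it lay between 44 and 91 bases before the start on the strand of the gene. Each line gives 66 bases for 5 of them, with the Y box core and, where present, the X box core AACNGATG in capitals.
H2-Eb1, + strand of chr17:34305753-34305818: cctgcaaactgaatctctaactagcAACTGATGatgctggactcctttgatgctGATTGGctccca
H2-DMb2, + strand of chr17:34145104-34145169: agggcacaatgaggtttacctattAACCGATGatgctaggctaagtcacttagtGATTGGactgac
H2-Aa, - strand of chr17:34287861-34287926: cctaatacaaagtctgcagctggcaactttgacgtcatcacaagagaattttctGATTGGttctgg
H2-Oa, + strand of chr17:34092281-34092346: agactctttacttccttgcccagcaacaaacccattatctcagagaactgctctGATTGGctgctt
H2-Ob, + strand of chr17:34238793-34238858: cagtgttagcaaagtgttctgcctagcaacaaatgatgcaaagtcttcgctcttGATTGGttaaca

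AACNGATG alone was present, on either strand, in 2.32% of all windows. In H2-DMb1 and H2-DMb2 it started 30 bases before the Y box core, and in H2-Eb1 29 bases before it. The pair, with the X box core 20 to 50 bases before the Y box core on the strand of the gene, occurred in 7 of the 32851 windows. Of these 7, 4 belong to class II genes, namely H2-Eb1, H2-DMb1, H2-DMb2 and H2-Eb2. The letters and the spacing were chosen after the promoters of the members had been read, and the absence of these exact letters in H2-Aa, H2-Oa and H2-Ob says nothing about the factors that bind there.

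The libraries held between 36550775 and 38147320 counts, and 3 counts, the most that an observed 0 leaves possible by counting error alone, equaled 0.0716 to 0.0846 CPM. Members held between 143 and 168653 counts in a library, far above this limit. Of the 10 macrophage markers, Ptprc, Itgam and Adgre1 (which encode the sorted antigens), Csf1r, Cd68, Mertk, Fcgr1, C1qa, C1qb and C1qc, none was at 0, and their summed level was 6599 to 7154 CPM in wt libraries and 3826 to 6136 CPM in those labelled knockdown. Summed markers of other cells were also present, at 335 to 641 CPM for dendritic cells and 8.48 to 62.5 for B cells over the 6 libraries. Monocyte sums were 1822 to 2513 CPM in wt libraries and 1016 to 1681 in those labelled knockdown, and neutrophil sums were 1644 to 1839.8 and 716 to 1443, so that neither overlapped. T cell sums were 12.9 to 65.3 CPM in wt libraries and 53.1 to 142 in those labelled knockdown, fibroblast sums 22.4 to 470.0 and 341 to 681, and epithelial or carcinoma sums 10.9 to 123.3 and 111 to 178. Each tested marker of these last 3 lists had a positive estimate, with median log2 fold changes of 1.33, 1.48 and 1.00, and those of monocytes (-0.72) and neutrophils (-0.52) were negative in each tested marker. Wt replicate 1 stood apart from the other libraries by its low Npm1 and by the lowest fibroblast and epithelial sums. Knockdown replicate 3 was the library labelled knockdown nearest to wt in its macrophage sum. Results are given with and without these libraries, which were picked by these same data. The part of these cells and of RNA composition in the results below was not tested.

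Most class II genes had lower means in the libraries labelled knockdown, but no member passed the test and none separated the groups. The estimate was negative in 9 of the 10 genes, with a median log2 fold change of -0.39, against 0.02 over the 13884 genes tested. Ciita had the lowest estimate, at -0.96, and H2-Ob the only positive one, at 0.04. By the quasi-likelihood test of edgeR, 0 of 10 members had an adjusted p-value under 0.05, against 0% of all genes. At an unadjusted p-value under 0.05 there was 1 member, Ciita, where 8.31% of all genes lay on the lower side. DESeq2 on the 6 libraries also called 0 members. It gave 3 at an unadjusted p-value under 0.05, namely Ciita, H2-DMb1 and H2-DMa, where 1197 of 22376 genes lay on the lower side. The values of the groups overlapped in all 10 members, although 12.6% of all genes had every knockdown library below every wt library and 13.3% had it above.

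**Figure D1:**
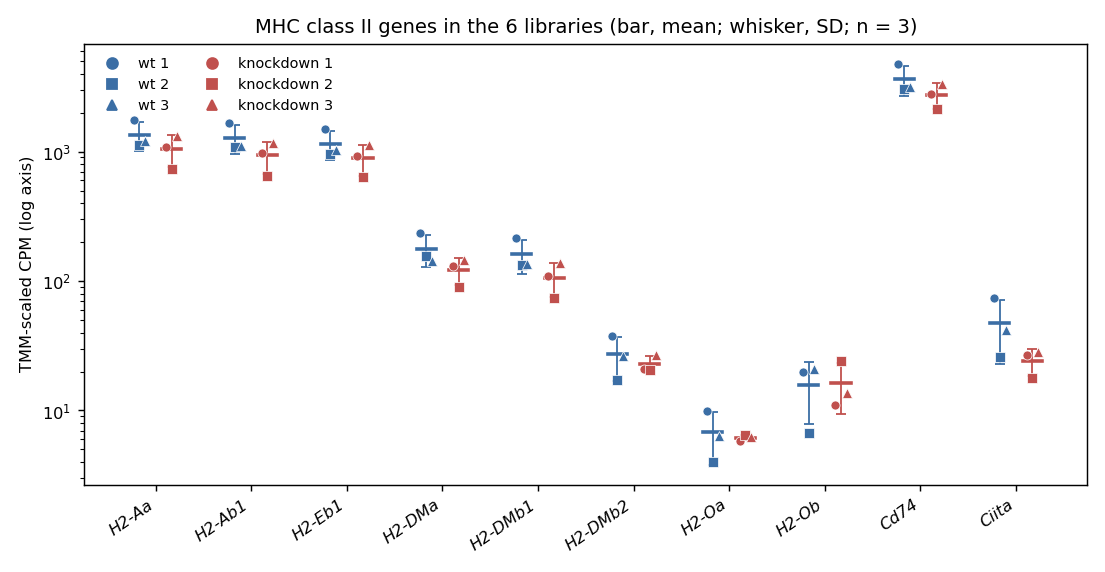
Level of each class II gene in the 6 libraries, in TMM-scaled CPM on a log axis, with blue for wt and red for libraries labelled knockdown and 1 symbol per replicate number. Horizontal bars are means and whiskers the SD of 3 libraries, and in each gene the points of the 2 groups overlap.

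Among the genes of the peptide-binding chains, H2-Aa, the α chain of I-A, stood at 1739.8, 1115 and 1204 CPM in wt replicates 1, 2 and 3, and at 1084, 735 and 1309 CPM in knockdown replicates 1, 2 and 3. The highest value was wt replicate 1, the lowest knockdown replicate 2, and knockdown replicate 3 exceeded 2 of the wt libraries. The means were 1353 ± 338 and 1042 ± 289 CPM (SD, n = 3 each), with a log2 fold change of -0.38 (SE 0.26, adjusted p = 0.424, where adjustment in edgeR was over all genes tested).
H2-Ab1, the β chain of I-A, had 1649, 1092 and 1107 CPM in the wt libraries and 981, 653 and 1165 CPM in those labelled knockdown. It had a log2 fold change of -0.46 (SE 0.26, adjusted p = 0.365 in edgeR). H2-Eb1, the β chain of I-E, had 1483, 953 and 1022 CPM against 916, 631 and 1115 CPM, with a log2 fold change of -0.38 (SE 0.26, adjusted p = 0.42 in edgeR). All 3 genes thus ranked the 6 libraries in the same order, from wt replicate 1 through knockdown replicate 3, wt replicate 3, wt replicate 2 and knockdown replicate 1 to knockdown replicate 2. H2-Ea, the chain that pairs with H2-Eb1, was not analysed here. H2-Eb2, a further β chain gene of the locus, was low, from 3.78 to 10.0 CPM.
These 3 genes lie on chromosome 17 of GRCm38 in the GENCODE annotation, H2-Ab1 from 34257689 to 34269419 and H2-Eb1 from 34305867 to 34316674 on the plus strand and H2-Aa from 34282744 to 34287823 on the minus strand.

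Cd74, which encodes the invariant chain and lies on chromosome 18 of GRCm38 from 60803848 to 60812652, was the most abundant member and ranked between 9 and 19 among all genes by FPKM, depending on the library. It was at 4742, 3027 and 3171 CPM in the wt libraries and at 2799.5, 2125 and 3339.6 CPM in the libraries labelled knockdown. It followed the same order of libraries as the chain genes. The means were 3647 ± 951 and 2755 ± 608 CPM (SD, n = 3 each), with a log2 fold change of -0.40 (SE 0.25, adjusted p = 0.389 in edgeR). Cd74 alone took between 0.244% and 0.442% of all counts of a library, and the 10 members together between 0.502% and 0.951%, with knockdown replicate 2 lowest and wt replicate 1 highest in both.

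For the peptide exchange factor H2-DM, the α chain gene H2-DMa (chromosome 17, 34119541 to 34139101, plus strand) had 234, 156 and 143 CPM in the wt libraries and 131, 89.2 and 144 CPM in those labelled knockdown. Here the overlap of the groups lay between knockdown replicate 3 and wt replicate 3, the former just above the latter. The estimate was -0.55 on the log2 scale (SE 0.24, adjusted p = 0.329 in edgeR). H2-DMb1 (34153072 to 34160230), the main β chain, had 217, 132 and 136 CPM against 108, 73.6 and 137 CPM, and a log2 fold change of -0.60 (SE 0.27, adjusted p = 0.331 in edgeR). H2-DMb1 kept the library order of the chain genes, and its overlap likewise came from knockdown replicate 3. H2-DMb2 (34143307 to 34151555), the second β chain, had 37.6, 17.3 and 26.3 CPM against 21.0, 20.6 and 26.8 CPM, with a log2 fold change of -0.25 (SE 0.28, adjusted p = 0.606 in edgeR). In H2-DMb2 the lowest library was wt replicate 2, so that the order differed from that of H2-DMb1.
Reads of the β chain genes may have been divided between them, since 27.2% of the 50-base stretches in coding transcripts of H2-DMb1 occur identically in H2-DMb2, while H2-DMa, the 2 H2-DO genes, the 3 I-A and I-E genes, Cd74 and Ciita shared 0% with any other gene. Of those of H2-DMb2, 24.8% occur in other genes, most of them in H2-DMb1. H2-DMa overlaps Brd2 on the opposite strand, Ciita overlaps Dexi, and H2-Eb1 and H2-Oa each overlap an antisense transcript. Whether the counting used strand is not given in the sources used here, so reads of these pairs cannot be told apart.

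The genes of H2-DO had library orders of their own. H2-Oa (chromosome 17, 34092340 to 34095234, plus strand) was at 9.90, 4.03 and 6.39 CPM in the wt libraries, which span all other values, and at 5.85, 6.44 and 6.24 CPM in the libraries labelled knockdown. The estimate was -0.13 on the log2 scale (SE 0.33, adjusted p = 0.827 in edgeR). H2-Ob (34238903 to 34254414, plus strand) was at 19.8, 6.65 and 21.1 CPM against 11.1, 24.1 and 13.7 CPM, with a log2 fold change of 0.04 (SE 0.46, adjusted p = 0.962 in edgeR). Knockdown replicate 2, the lowest library for 7 of the members, was the highest for H2-Ob, and wt replicate 2 was the lowest for both genes.
The B cell markers summed were Cd79a, Cd79b, Ms4a1, Pax5, Cd22 and Fcer2a. Their sum had its extremes in the same libraries as H2-Ob. It was 43.4, 8.48 and 44.9 CPM in wt replicates 1, 2 and 3 and 16.8, 62.5 and 15.8 CPM in knockdown replicates 1, 2 and 3. None of these markers was at 0 throughout, and Cd79a, a subunit of the B cell receptor complex, ranged from 1.13 CPM in wt replicate 2 to 14.3 CPM in knockdown replicate 2. After log2 values were centered on each mean over the 6 libraries, the root mean square difference between H2-Ob and the B cell sum was 0.434, against 0.784 to the macrophage sum and 0.614 to the dendritic cell sum. For H2-Oa the smallest of the 3 differences was that to the dendritic cell sum, at 0.241. For each of the other 8 members the B cell sum was the farthest of the 3, at 0.904 or more. These distances describe 6 libraries that share their depth and composition, and the part of B cell RNA in the level of H2-Ob was not tested. In bulk RNA, fewer cells of a type and less RNA per cell cannot be told apart.

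**Figure D2:**
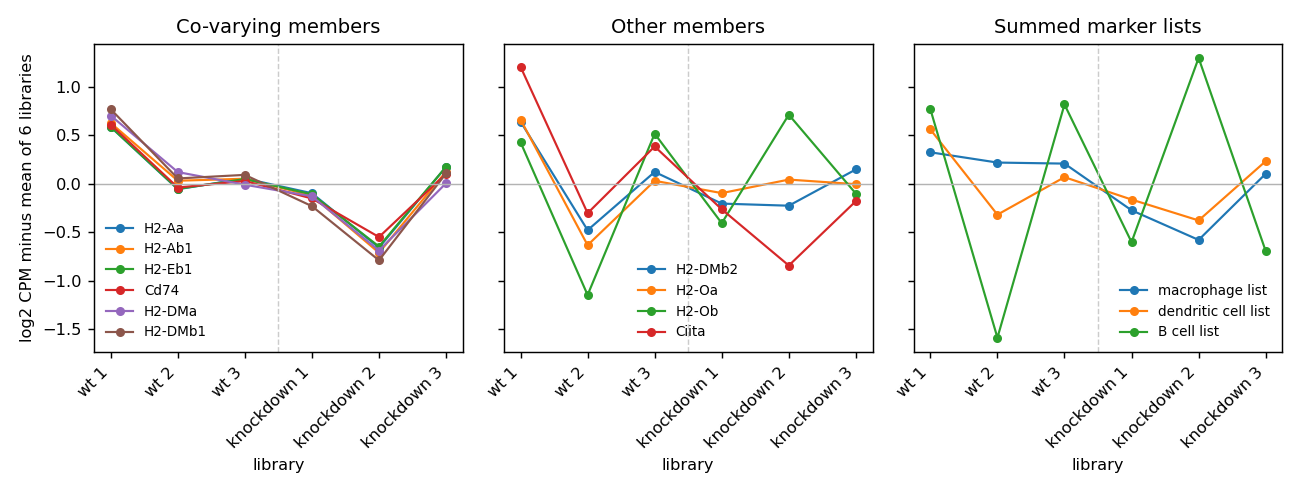
Profile of each member over the 6 libraries, as log2 CPM minus the mean of the gene, for 6 members with a common profile (left) and the other 4 (middle), beside the summed macrophage, dendritic cell and B cell markers (right). The left lines lie on each other, whereas H2-Ob is lowest in wt replicate 2 and highest in knockdown replicate 2, the libraries where the B cell sum was 8.48 and 62.5 CPM.

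Ciita, the class II coactivator (chromosome 16, 10480059 to 10528418, plus strand), had the widest spread. It was at 73.6, 25.9 and 41.7 CPM in wt replicates 1, 2 and 3 and at 26.6, 17.8 and 28.2 CPM in knockdown replicates 1, 2 and 3. The highest library exceeded the lowest 4.13-fold, against 2.17-fold to 3.63-fold in the other members, and wt replicate 2 lay below 2 of the libraries labelled knockdown. The means were 47.1 ± 24.3 and 24.2 ± 5.60 CPM (SD, n = 3 each), with a log2 fold change of -0.96 (SE 0.37, unadjusted p = 0.0337, adjusted p = 0.328 in edgeR). Without wt replicate 1 the estimate was -0.48 (SE 0.25, adjusted p = 0.442 in edgeR), and without wt replicate 2 it was -1.26 (SE 0.30, adjusted p = 0.258), with the groups no longer overlapping. Ciita has several alternative promoters with different cell type use, and counts per gene do not resolve them.

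A common profile over the libraries was shared by 6 members. The root mean square difference from H2-Ab1, in centered log2 CPM, was 0.0501 for H2-Aa, 0.0506 for H2-Eb1, 0.0736 for H2-DMa, 0.0745 for Cd74 and 0.0820 for H2-DMb1. Of 8083 other genes with a mean of at least 10 CPM, 26, or 0.322%, came as close as H2-DMb1, and the median gene was at 0.38. The nearest of these were Rab3d, Plac8, Prcp, Fn1 and Bckdha, at 0.0478 to 0.0511. Plac8 belongs to the monocyte markers and Fn1 encodes fibronectin. H2-DMb2 was at 0.291, Ciita at 0.338, H2-Oa at 0.414 and H2-Ob at 0.795, so that the coactivator itself was not among the genes closest to its targets. Those nearest to Ciita were Abi3, E2f2, C130050O18Rik, Nfe2 and Cd300lb, at 0.0972 to 0.140.

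Whether the groups overlapped depended on which library was left out. Without wt replicate 1, knockdown replicate 1 or knockdown replicate 2, they still overlapped in all 10 members. Over all genes, 14.9%, 14.5% and 15.1% then had every library labelled knockdown below every wt library. Ciita lost its overlap without wt replicate 2, and H2-DMa lost its overlap without wt replicate 3. In these fits 20.4% and 19.9% of all genes had every library labelled knockdown below every wt library. Without knockdown replicate 3, each library labelled knockdown was below each wt library in 6 of the 10 members, where 22.8% of all genes did the same. The median log2 fold change was then -0.58 and the adjusted p-values in edgeR were 0.268 or more. In 6 members knockdown replicates 1 and 2 were below every wt library already in the full set. Their separation was thus close to fixed by leaving out knockdown replicate 3. Without wt replicate 1, the median log2 fold change was -0.16 and H2-DMb2 and H2-Oa turned positive, at 0.06 and 0.24. Without wt replicate 1 and knockdown replicate 3, DESeq2 called 1 of 10 members, H2-DMb1, where 5.91% of all genes were called lower. Its log2 fold change was -0.60, with an adjusted p of 0.0383. The libraries left out were picked by these same data, so this call is no independent support. In edgeR on the same 4 libraries H2-DMb1 had a log2 fold change of -0.56 and an adjusted p of 0.15. There 0 members were called, and 1 was at an unadjusted p-value under 0.05, where 1477 of 14174 genes were on the lower side.
The sign of the estimates is relative to the scaling between libraries, which moves all genes alike. The macrophage markers had a negative estimate in 10 of 10 genes, with a median log2 fold change of -0.53. In 7 of them every library labelled knockdown was below every wt library, beside 12.6% of all genes. When libraries were scaled to the summed counts of these markers, the median log2 fold change of the class II genes became 0.09, that of all genes tested became 0.55, and 7 of the 10 members had a positive estimate. The median of the members minus that of all genes was -0.41 with TMM scaling and -0.46 with macrophage scaling. Relative to macrophage markers, the estimates of H2-Ab1 (0.01), H2-DMa (-0.06), Cd74 (0.08), H2-Aa (0.10), H2-Eb1 (0.10) and H2-DMb1 (-0.13) were then near 0 and smaller than their standard errors of 0.17 to 0.21, while Ciita stayed at -0.46 (SE 0.33, adjusted p = 0.306 in edgeR).

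**Figure D3:**
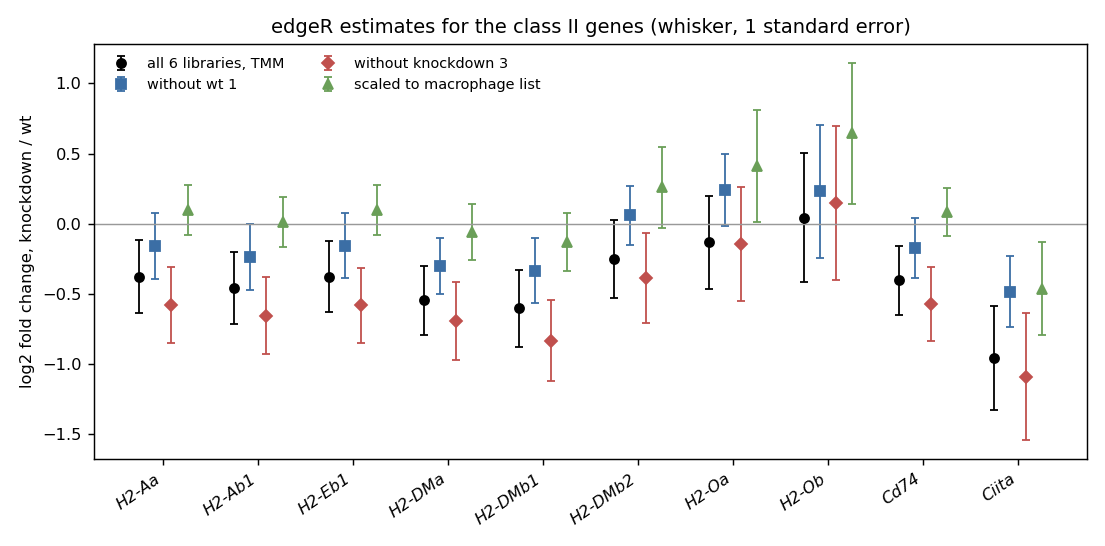
Log2 fold change of the libraries labelled knockdown over wt for each member, from edgeR with all 6 libraries, without wt replicate 1, without knockdown replicate 3 and with libraries scaled to the macrophage markers. Whiskers are 1 standard error, and with macrophage scaling 7 of the 10 estimates lie above 0, where all genes tested had a median of 0.55.

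Ratios of 2 genes within a library do not depend on the scaling between libraries. They were formed from FPKM, the deposited values per length, for 6 pairs and compared by an exact two-sided permutation test, for which 0.1 is the smallest p that 3 against 3 allow. The ratio of H2-Aa to H2-Ab1 was 1.12, 1.08 and 1.15 in the wt libraries and 1.17, 1.19 and 1.19 in those labelled knockdown, a log2 difference of 0.08 (exact permutation p = 0.1, adjusted p = 0.3 over 6 ratios). That of H2-Eb1 to H2-Ab1 was 0.643, 0.624 and 0.659 against 0.667, 0.691 and 0.684, also a log2 difference of 0.08 (exact permutation p = 0.1, adjusted p = 0.3). In both ratios each library labelled knockdown exceeded each wt library, by a small margin. The 2 ratios share H2-Ab1 as their denominator and are not independent.
The ratio of Cd74 to H2-Ab1 lay between 2.34 and 2.75 in all 6 libraries, and that of H2-DMa to both β chains between 0.138 and 0.163. Neither separated the groups. The deposited FPKM divide H2-DMa by 8325 bases, 4.15 times its longest coding transcript. The size of a ratio that holds H2-DMa therefore depends on this length and does not give the balance of the chains. Its log2 difference between the groups does not depend on the H2-DMa length. H2-DMb2 stood to H2-DMb1 as 0.158, 0.119 and 0.176 in the wt libraries and as 0.176, 0.255 and 0.178 in those labelled knockdown, a log2 difference of 0.42 (exact permutation p = 0.2, adjusted p = 0.4). This difference was 0.26 without wt replicate 2 and 0.24 without knockdown replicate 2. The summed H2-DO chains stood to H2-DMa as 0.521, 0.293 and 0.710 in the wt libraries and as 0.536, 1.23 and 0.556 in those labelled knockdown, a log2 difference of 0.59 (exact permutation p = 0.4, adjusted p = 0.6). It was 0.24 without wt replicate 2, 0.20 without knockdown replicate 2 and 0.88 without wt replicate 3. Knockdown replicate 2 held the highest value of both ratios. It was the lowest library for both denominators, H2-DMb1 (73.6 CPM) and H2-DMa (89.2 CPM), and the library with the most B cell marker RNA. The part of B cell RNA in these ratios was not tested.

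Levels of different members were compared per length. FPKM over the 6 libraries averaged 2235 ± 478 for Cd74, 1048 ± 231 for H2-Aa, 915 ± 214 for H2-Ab1 and 603 ± 132 for H2-Eb1 (SD, n = 6). H2-Aa exceeded H2-Ab1, and H2-Ab1 exceeded H2-Eb1, in each of the 6 libraries, although the ranges of neighbors overlapped. H2-DMb1 followed with 102 ± 30.3, and then H2-DMa with 17.7 ± 4.57 and H2-DMb2 with 17.6 ± 4.39, which exceeded each other in 3 libraries each. H2-Ob (5.39 ± 2.49), H2-Oa (5.30 ± 1.47) and Ciita (3.57 ± 1.83) were lowest. Their ranges overlapped, H2-Ob exceeded H2-Oa in 2 of 6 libraries, and H2-Oa exceeded Ciita in all 6.
The places of H2-DMa and Ciita depend on the length used. The deposited FPKM values divide its counts by 8325 bases, 4.15 times its longest coding transcript of 2005 bases in GENCODE, and those of Ciita by 9775 bases, 1.63 times its longest coding transcript, while the other 8 lengths lay within 0.915 and 1.14 times theirs. Divided by the longest coding transcript instead, a choice made after the lengths were seen, H2-DMa was at 73.5 ± 19.0 (SD, n = 6), below H2-DMb1 at 93.7 ± 27.7 in all 6 libraries and above H2-DMb2 at 16.7 ± 4.18, and Ciita was at 5.81 ± 2.98, below H2-Oa in 3 of 6 libraries. A length is constant over libraries and does not enter the log2 fold changes.

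Other genes of the pathway were read from the same edgeR fit, and none of them passed an adjusted p-value of 0.05 in either direction. Of 10 genes of lysosomal processing, 9 had a negative estimate, with a median of -0.44. In 5 of them every library labelled knockdown was below every wt library, beside the 12.6% of all genes. With macrophage scaling 1 of the 10 was below and 2 were above, where 0.706% and 35.8% of all genes were. Without knockdown replicate 3, 9 were below, where 22.8% of all genes were. Lgmn, the asparaginyl endopeptidase, had the lowest estimate, with 828, 834 and 717 CPM against 496, 409 and 633 CPM and a log2 fold change of -0.63 (SE 0.18, adjusted p = 0.328). Ctsl, which encodes cathepsin L, had the highest, at 0.07 (SE 0.14, adjusted p = 0.792). The 7 factors of the class II promoter had a median near 0, at -0.07, from Rfxank at -0.61 (SE 0.21, adjusted p = 0.328) to Nfyb at 0.14 (SE 0.15, adjusted p = 0.58). In 2 of them the groups did not overlap, on the lower side, beside 12.6% of all genes.
The 8 genes of interferon-gamma input and of the macrophage lineage went both ways. Spi1, the lineage factor PU.1, had 441, 302 and 280.2 CPM against 206, 158 and 246 CPM, with a log2 fold change of -0.75 (SE 0.23, adjusted p = 0.328). Irf1, an interferon-induced activator, had 300.1, 286 and 226 CPM against 394, 412 and 375 CPM, with a log2 fold change of 0.54 (SE 0.14, adjusted p = 0.328). In this list 4 genes had every library labelled knockdown below every wt library and 2 had it above, beside 12.6% and 13.3% of all genes. The 3 genes of surface turnover had a median of -0.36, from Cd83, which protects surface class II, at -0.41 (adjusted p = 0.336) to the ubiquitin ligase gene Marchf8 at 0.03 (adjusted p = 0.922), and none separated the groups. The 5 partners of Cd74 had a median of -0.15, from Cxcr2 at -0.97 (SE 0.32, adjusted p = 0.328) to the ligand Mif at 0.11 (SE 0.14, adjusted p = 0.645). Cxcr2 is also typical of neutrophils, whose summed markers were 1644 to 1839.8 CPM in wt libraries and 716 to 1443 in those labelled knockdown.
The class I list (H2-K1, H2-D1, B2m, Tap1, Tap2, Tapbp, Psmb8, Psmb9, Psmb10, Nlrc5, H2-T23 and H2-M3) had the same median as the class II genes, -0.39, with a negative estimate in all 12 genes. In 9 of these 12 genes every library labelled knockdown was below every wt library, against 0 of 10 class II genes, beside 12.6% of all genes. With macrophage scaling 0 of these 12 were, where only 0.706% of all genes were. Neither list held a gene with an adjusted p-value under 0.05, and the difference between the lists was not tested.

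**Figure D4:**
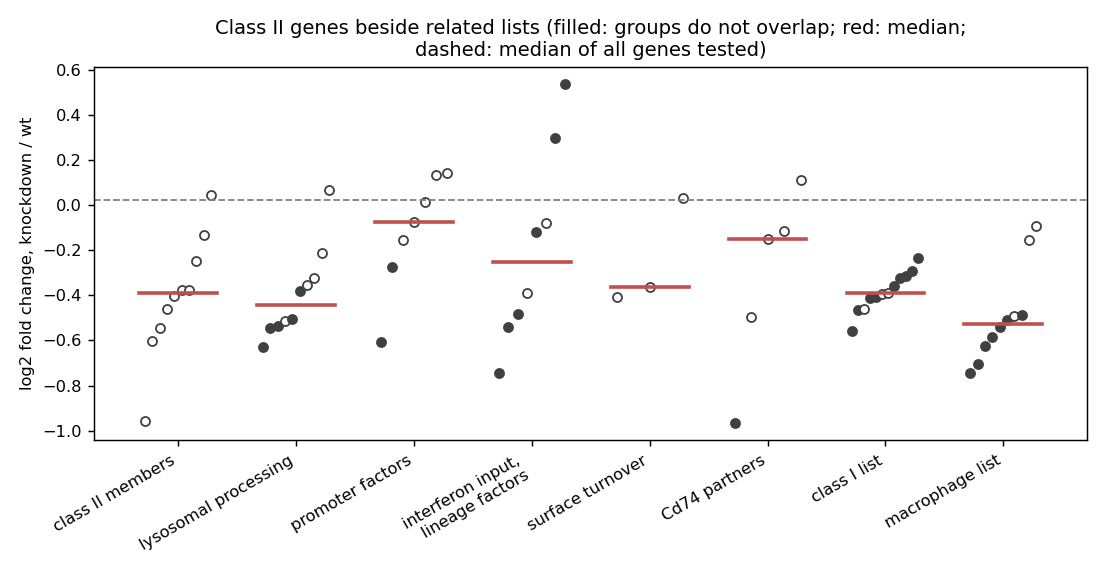
Log2 fold change of the libraries labelled knockdown over wt for each tested gene of the class II members, of the other pathway lists, of the class I list and of the macrophage markers (edgeR, 6 libraries). Red bars are medians, the dashed line is the median of all genes tested, and filled points, 0 of 10 class II members but 9 of 12 class I genes, mark genes whose groups did not overlap.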

How the data were processed

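Per the labels, 6 libraries were aligned to mm10. The aligner, the counter, their versions and the annotation are not given in the sources used here. Whole-number read counts were deposited without normalization, beside FPKM values made by the authors, whose implied gene length was constant over the libraries, within a relative tolerance of 0.001, in all 15063 genes checked. Members and gene lists were chosen with earlier results of these data known. Counts were fitted with edgeR 4.0.16 in R 4.3.3 (filterByExpr, TMM, glmQLFit, glmQLFTest), with Benjamini-Hochberg adjustment over 13884 genes and a threshold of 0.05. Each SE was the size of the log2 estimate over the root of its F statistic. CPM use TMM-scaled library sizes. Alternatives used DESeq2 1.42.0, limma 3.58.1 on log2(FPKM + 1) or log2(FPKM + 0.1), other scalings and filters, and libraries left out. The fit was also run on simulated counts, with planted changes larger than the estimates of the members and no difference in cell content. That run does not show how well changes of the size of the members are found. In each pathway list with at least 3 tested genes, the gene with the lowest and the gene with the highest estimate were named, and the nearest genes to H2-Ab1 and Ciita were the 5 with the smallest root mean square difference. Replicate numbers did not pair the libraries, with correlations of deviations of -0.287, 0.111 and -0.37. No libraries were near duplicates (chi-square per gene of 31.1 to 139 within groups). Coordinates and transcripts are from GENCODE M21. One B cell marker is not reported here and was left out of the B cell sum, a choice made after seeing the data. Ighm, Trac, H2-Ea and H2-Ea-ps are not analysed here. P-values measure the spread between these samples.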

Additional observations from a re-analysis of the deposited data

How the results depend on the processing

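With 3 libraries per group, the values of the groups overlapped in all 10 members. Counts per member and library were 143 or more. Of the recomputed values, 201 for comparisons and 310 for single genes kept their direction and side of the threshold, or a count within 1.5 times. A list median also had to stay within a margin set for each list, 0.378 for the members. Among the comparisons 19 moved and 15 reversed their sign. Among the single genes 25 reversed their sign and 5 became stronger. The cause of the differences listed was not tested.

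DESeq2 called 36 genes on 6 libraries and edgeR 0, with 2112 genes at an unadjusted p-value under 0.05 in edgeR, 669 (without knockdown replicate 2) to 2689 (without wt replicate 2) with 1 library left out, 775 without knockdown replicate 1, and 4772 with macrophage scaling. Without wt replicate 1 and knockdown replicate 3, DESeq2 called 1266 genes, among them 1 member, H2-DMb1, and the named pathway genes Lgmn (-0.82), Spi1 (-0.72), Irf1 (0.61) and Cd83 (-0.67), and 7 members did not overlap, against 6 with edgeR, where 22.2% and 26.1% of all genes did the same on the lower side. On FPKM, limma with either pseudocount gave 1 member whose groups did not overlap, H2-DMa, against 6.88% of all genes on the lower side. Leaving out each library in turn gave 0 to 6 such members, with 1 without wt replicate 2, 1 without wt replicate 3 and 6 without knockdown replicate 3, against 20.4%, 19.9% and 22.8% of all genes.

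Scaling to the macrophage markers gave positive medians of 0.089 for the members, 0.14 for the class I list, 0.049 for lysosomal processing, 0.42 for promoter factors, 0.28 for interferon-gamma input, 0.073 for surface turnover and 0.35 for Cd74 partners, with all genes at 0.55. Genes whose groups did not overlap on the lower side then numbered 0 of 12 in class I (9 with TMM). In lysosomal processing they numbered 1 of 10 (5 with TMM). Over all genes the share on the lower side was 0.706% (12.6% with TMM). Of the macrophage markers 1 of 10 did not overlap (7 with TMM), but these genes set the scaling, so their fall carries no information of its own. Single genes that turned positive were H2-Aa (0.097), H2-Ab1 (0.014), H2-Eb1 (0.097), H2-DMb2 (0.26), H2-Oa (0.41), Cd74 (0.082) and Cd83 (0.071).

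With limma on log2(FPKM + 1) and log2(FPKM + 0.1), medians were -0.22 and -0.24 for class I, 0.067 and 0.079 for promoter factors, -0.090 and -0.093 for interferon-gamma input and 0.0101 with both for Cd74 partners, and H2-Oa was at 0.079 and 0.11. In DESeq2 on 4 libraries, promoter factors had -0.20, surface turnover -0.67, Cd74 partners -0.30, H2-Oa 0.20, Ctsl -0.13, Marchf8 -0.080 and Mif -0.043.

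With each library left out in turn, or wt replicate 1 and knockdown replicate 3 together, edgeR log2 fold changes ranged from -0.63 to -0.14 for surface turnover, -0.49 to 0.059 for H2-DMb2, -0.40 to 0.24 for H2-Oa, -0.36 to 0.34 for H2-Ob, -0.090 to 0.14 for Ctsl, -0.096 to 0.15 for Marchf8 and -0.0048 to 0.24 for Mif. The log2 difference of H2-DMa to both β chains ranged from -0.045 to 0.074, and it was -0.00061 from counts without length.

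Replicate numbers gave the libraries only a number, and not every correlation of deviations was above 0.1. With the replicate block, 0 genes passed, 1606 had an unadjusted p-value under 0.05, and the median of the members was -0.39.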
